A study of Mus musculus with 18 samples.

Results

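Neurofilament and axon cytoskeleton genes were examined in RNA-seq of dorsal root ganglia (DRG), the ganglia that hold the cell bodies of sensory neurons. The 10 genes were Nefl, Nefm, Nefh, Prph, Ina, Stmn2, Tubb3, Map1b, Add2 and Uchl1, and they were found by symbol among the 36737 genes of the deposited table, where each had 1 row. They were selected on their function in the axon and their abundance, and Add2 was selected on its rise after fracture, so the levels of all 10 and every group difference of Add2 are given as descriptions without a test. The study took L3–L5 DRG from adult outbred CD1 mice, aged 8 to 16 weeks by the study's general animal methods, in 3 groups. Sham mice had sham surgery, Fracture mice had the left tibia pinned and broken by osteotomy under isoflurane and received vehicle, and Fracture+PDX mice had the same surgery and received protectin DX, a lipid mediator made from an omega-3 fatty acid. There were 6 mice to a group (3 of each sex) and every mouse gave 1 library. Ganglia of both fracture groups were collected on day 3. The collection day of the sham mice, the side of the ganglia, the age of each mouse and the dose and route of PDX in the sequenced mice were not given in the sources used here.

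Neurofilaments are the intermediate filaments of neurons. They are built from a light, a medium and a heavy subunit encoded by Nefl, Nefm and Nefh, to which peripherin (Prph) or α-internexin (Ina) can be added, and they fill and widen large axons. Microtubules run alongside them as tracks for transport, and their β-tubulin III subunit (Tubb3), the microtubule-binding protein MAP1B (Map1b) and the tubulin-binding protein stathmin-2 (Stmn2) are typical of neurons. β-Adducin (Add2) joins spectrin to actin in the skeleton beneath the membrane, and Uchl1 encodes a ubiquitin hydrolase that is abundant in neuronal cell bodies and axons.

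The 5 intermediate filament genes share the coding sequence for the end of the rod domain, the part through which subunits assemble, and it is shown here because it is what makes them a family. In the 30 bases below, read from the GRCm38 reference genome and written 5′ to 3′ on the coding strand, capitals mark the 20 positions that are identical in all 5 genes. The stretch encodes 1 variable residue followed by YRKLLEGEE. In Nefl, Nefm, Nefh and Ina an intron separates the first 8 bases from the last 22, whereas in Prph the stretch lies within exon 5.
Nefl (chr14:68086091-68086098 in exon 2 and chr14:68086487-68086508 in exon 3, plus strand): gCtTACAGaAAaCTctTgGAaGGcGAaGAG
Nefm (chr14:68122821-68122828 in exon 2 and chr14:68121363-68121384 in exon 3, minus strand): gCgTACAGgAAaCTccTaGAgGGgGAaGAG
Nefh (chr11:4943851-4943858 in exon 3 and chr11:4941394-4941415 in exon 4, minus strand): gCtTACAGaAAgCTccTgGAaGGcGAaGAG
Prph (chr15:99057444-99057473, plus strand): aCcTACAGgAAgCTacTgGAaGGgGAgGAG
Ina (chr19:47021950-47021957 in exon 2 and chr19:47023335-47023356 in exon 3, plus strand): gCtTACAGgAAgCTccTgGAaGGtGAaGAG
Any pair of the 5 genes was identical at 22 to 28 of these 30 positions. Over the whole transcripts the longest exact stretch shared by a pair was 13 to 35 bases, and the longest that Tubb3 shared with another β-tubulin gene was 18 to 47 bases, so within these pairs no longer exact match exists.

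The subunits differ most in their tails. The tail of the heavy subunit repeats the tripeptide KSP, a phosphorylation site for proline-directed kinases, and the reference coding sequence of Nefh held 51 KSP in 1090 residues, against 4 in 848 residues of Nefm and 0 in those of Nefl, Prph and Ina. A 90-base stretch of Nefh exon 4 is shown to let the repeat be seen, with the codons of its 5 KSP in capitals.
Nefh (GRCm38, chr11:4940974-4941063, minus strand): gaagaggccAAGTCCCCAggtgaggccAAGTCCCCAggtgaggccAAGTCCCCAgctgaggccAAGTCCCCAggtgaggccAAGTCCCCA
Nefh is the only one of the 3 neurofilament subunit genes on chromosome 11. Nefl (chr14:68083863-68089095, plus strand) and Nefm (chr14:68082590-68124846, minus strand) are neighbours on opposite strands, and their annotated exons overlap over 1108 bases, 32.8% of the exon bases of Nefl, although 0 of these bases belong to the main Nefm transcript. The libraries were stranded, but the strand setting of the counting was not given in the sources used here, so reads in the overlap may have been counted for either gene.

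Library totals lay between 63235040 and 82824942 counts. Tubb3 lies on chromosome 8 (123411424 to 123422015), Stmn2 on 3 (8509360 to 8561606), Add2 on 6 (86028681 to 86124409), Uchl1 on 5 (66676091 to 66687234) and Prph on 15 (99055174 to 99058978), all on the plus strand as is Ina on 19 (47014698 to 47025327), whereas Map1b on 13 (99421446 to 99516540) and Nefh on 11 (4938754 to 4948064) are on the minus strand. The recorded sex was matched by sex-linked genes in 18 of 18 libraries, and 0 pairs of libraries were identical. Markers of DRG neurons were present in every library, with 11 pan-neuronal genes summing to 4335 to 4920 CPM (library-scaled counts by the trimmed mean of M values), while 5 trophoblast genes, which have no known place in DRG, were counted in every library, males included, and summed to 149 to 491 CPM in sham, 24.8 to 224 CPM in Fracture and 24.4 to 115 CPM in Fracture+PDX mice. Skeletal muscle genes, 6 in number, summed to 22 to 558 CPM in sham, 45.0 to 1040 CPM in Fracture and 11.4 to 486 CPM in Fracture+PDX libraries.

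Most of the 10 genes were among the most abundant transcripts of the ganglia. On the FPKM scale, which corrects for transcript length, Nefl was highest with a sham median of 1565 FPKM and rank 15 among all genes. Tubb3 followed at 1185 FPKM, Uchl1 at 1075, Nefm at 768, Prph at 693 and Nefh at 669 FPKM, all within the top 38 genes of sham ganglia. Stmn2 at 203 FPKM and Map1b at 194 FPKM stood at ranks 138 and 143. The description as abundant did not hold for the remaining genes, since Add2 had a sham median of 23.8 FPKM at rank 1930 and Ina 10.8 FPKM at rank 4291. Neighbours in this order whose sham ranges overlapped, and which the sham spread therefore did not separate, were Tubb3 and Uchl1, Nefm and Prph, Prph and Nefh, and Stmn2 and Map1b.

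**Figure D1:**
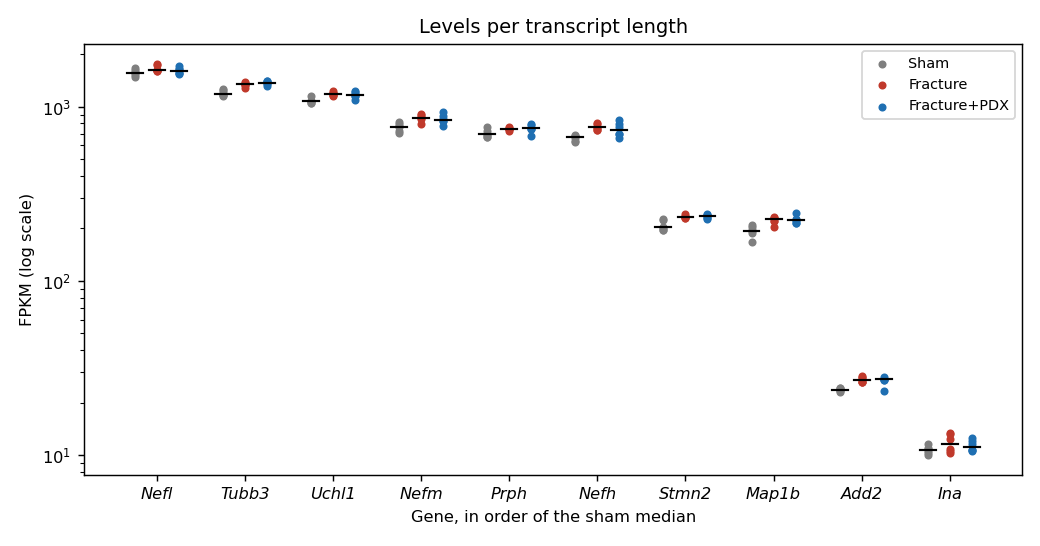
Level of each gene in FPKM (log axis) in each of the 18 libraries, ordered by the sham median, with 1 point per library coloured by group and a bar at the group median. Nefl lies highest at 1485 to 1663 FPKM in sham mice, and Add2 and Ina lie well below the other 8 genes.

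Together the 10 genes took 2.39% to 2.60% of all counts in sham libraries, 2.61% to 2.79% in Fracture libraries and 2.57% to 2.88% in Fracture+PDX libraries. The Fracture libraries all lay above the sham libraries in this share. The 3 neurofilament subunits made up 1.29% to 1.46% of counts in sham, 1.43% to 1.55% in Fracture and 1.37% to 1.60% in Fracture+PDX mice, and these ranges overlapped.

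The comparison of Fracture with sham mice asks what 3 days of tibial fracture changed in the lumbar ganglia. Small rises were found in 6 of the 9 genes tested, namely Nefm, Nefh, Stmn2, Tubb3, Map1b and Uchl1, with log2 differences from 0.14 to 0.22, and 0 fell. All 9 had a positive log2 difference, with a median of 0.17 against 0.00 over all genes tested. Differences came from edgeR's quasi-likelihood test with sex as a covariate on 12 libraries, with Benjamini-Hochberg adjustment across 20659 genes, of which 603 (2.92%) passed an adjusted p of 0.05 and 225 (1.09%) passed it as higher after fracture. On log2(FPKM + 1) with limma, 437 genes passed and 116 of them were higher. Since these are whole ganglia, a larger share of neurons and more RNA per neuron cannot be told apart.

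Among the neurofilament subunits, the medium and heavy ones rose after fracture. Nefh had 2725, 2923 and 3066 CPM as the lowest, median and highest sham value and 3210, 3344 and 3547 CPM in Fracture mice. Every Fracture library was above every sham library, and the log2 difference was 0.22 (95% interval 0.14 to 0.30, edgeR adjusted p = 0.0126). Nefm had 4503, 4859 and 5215 CPM in sham and 5050, 5508 and 5883 CPM in Fracture mice. For Nefm, 5 of 6 Fracture libraries were above all sham libraries, with a log2 difference of 0.19 (95% interval 0.10 to 0.28, edgeR adjusted p = 0.0321). Nefl, the subunit that the others need to form filaments, had 5421, 5786 and 6263 CPM in sham and 5976, 6073 and 6546 CPM in Fracture mice. Its groups overlapped, with 2 Fracture libraries above all sham libraries, and its log2 difference of 0.09 (95% interval 0.01 to 0.17) did not pass the test (edgeR adjusted p = 0.210).

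Neither of the other filament subunits passed the test. Prph, the filament protein typical of small sensory neurons, had 1481, 1523 and 1636 CPM in sham and 1609, 1646 and 1673 CPM in Fracture mice. For Prph, 4 Fracture libraries were above all sham libraries, and the log2 difference was 0.10 (95% interval 0.03 to 0.16, edgeR adjusted p = 0.10). Ina, which is used mainly by central neurons and in development, was low, with 36.2, 38.3 and 41.7 CPM in sham and 36.6, 41.9 and 48.1 CPM in Fracture mice. Its ranges overlapped widely, with a log2 difference of 0.14 (95% interval 0.04 to 0.24, edgeR adjusted p = 0.12).

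The 3 microtubule genes rose. Tubb3 had 2340, 2464 and 2594 CPM in sham and 2656, 2762 and 2829 CPM in Fracture mice, without overlap, and its log2 difference was 0.17 (95% interval 0.10 to 0.23, edgeR adjusted p = 0.0126). Stmn2, whose product is carried into growing axons, had 1213, 1250 and 1382 CPM in sham and 1408, 1458 and 1496 CPM in Fracture mice. These groups were also separate, with a log2 difference of 0.18 (95% interval 0.10 to 0.26, edgeR adjusted p = 0.0273). Map1b had 2919, 3365 and 3682 CPM in sham and 3558, 3955 and 4076 CPM in Fracture mice. It varied most between mice of the tested genes that rose, with 5 Fracture libraries above all sham libraries, a log2 difference of 0.22 and an SE of 0.0504 (95% interval 0.11 to 0.33, edgeR adjusted p = 0.0330).

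Uchl1 had 1888, 1903 and 2074 CPM in sham and 2084, 2128 and 2191 CPM in Fracture mice. The groups were separate, and Uchl1 rose with a log2 difference of 0.14 (95% interval 0.08 to 0.20, edgeR adjusted p = 0.0212). Add2, whose difference chose it, had 257, 265 and 273 CPM in sham and 292, 303 and 322 CPM in Fracture mice. Its log2 difference of 0.20 (SE 0.0304) lay between those of Tubb3 and Map1b. With Add2 set aside, Nefh, Stmn2, Tubb3 and Uchl1 were the genes in which every Fracture library exceeded every sham library, which held for 198 of 20654 genes (0.959%).

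**Figure D2:**
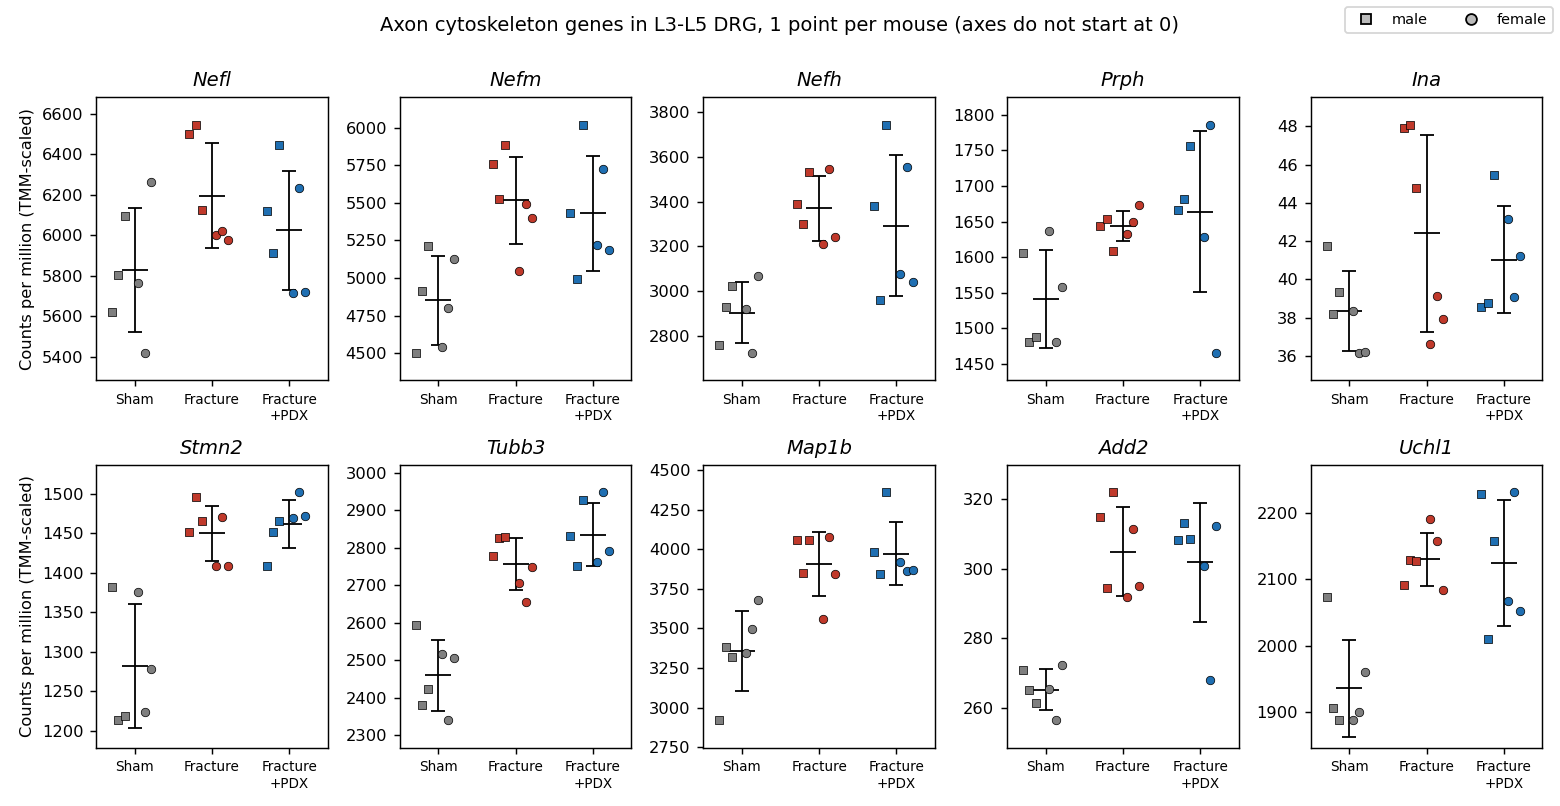
CPM of each of the 10 genes in each library, with 1 panel per gene, 1 point per mouse (squares for males, circles for females) and bars for the group mean ± SD (axes do not start at 0). Fracture and Fracture+PDX points lie mostly above the sham points, and Nefh, Stmn2, Tubb3, Add2 and Uchl1 have no overlap between Fracture and sham.

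The calls in this comparison depended on the libraries and covariates used, while the sign of each of the 9 tested genes did not. Leaving out 1 mouse at a time left 2 to 6 of the 9 tested genes called, with 2 without Sham male 2, Sham female 2 or Fracture female 2 and 3 without Sham male 3, Fracture male 2 or Fracture male 3. Nefh and Tubb3 stayed called in all 12 such fits, Uchl1 in 8, Stmn2 in 6, Nefm in 4 and Map1b in 3. On FPKM with limma, 4 or 5 of the 9 were called. Settings chosen after seeing the data ended all of the calls. Without the 4 libraries of the series whose muscle genes summed to over 450 CPM, 9 libraries remained for Fracture and sham, 0 of the 9 genes were called and 3 of all genes were, with log2 differences of the 10 genes from 0.09 to 0.20 (edgeR adjusted p from 0.136 to 0.470). With the trophoblast level as a covariate they were 0.06 to 0.16 (edgeR adjusted p from 0.569 to 0.877), and with the pan-neuronal level as a covariate 0.05 to 0.14 (edgeR adjusted p from 0.449 to 0.896). With these covariates 1 and 2 of all genes were called. The part of muscle RNA, trophoblast RNA and neuronal content in the rises was not tested beyond these fits.

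The marker lists show what moved beside the 10 genes. All 11 pan-neuronal markers had a positive log2 difference after fracture, with a median of 0.11, although 0 of 11 passed edgeR's test. Their sums were 4335 to 4700 CPM in sham and 4644 to 4878 CPM in Fracture mice. Of 8 markers of A-fibre neurons, the large myelinated neurons rich in neurofilament, 0 were called and all 8 were positive with a median of 0.11. Of 8 nociceptor markers 0 were called, 6 were positive and the median was 0.06. The nociceptor markers that were not positive were Calca and Tac1, with values of -0.02 and -0.04. The part of neuronal content in the rises of the neurofilament genes was not tested beyond the fits above.

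Among markers of vessels, macrophages and fibroblasts 4 fell after fracture. Of 6 myelinating Schwann cell genes 0 were called, with a median log2 difference of -0.22 and sums that varied between mice from 10510 to 23630 CPM in sham and from 11970 to 18590 CPM in Fracture libraries. Endothelial markers fell in 2 of 4 cases, Cdh5 by 0.73 and Flt1 by 0.71 on the log2 scale (edgeR adjusted p = 0.0117 and 0.0171), and sums were 92.9 to 136 CPM in sham and 75.8 to 98.0 CPM in Fracture mice. The macrophage receptor Csf1r fell by 0.47 (edgeR adjusted p = 0.00733) as 1 of 6 macrophage markers, and the matrix gene Dcn fell by 0.33 (edgeR adjusted p = 0.0331) as 1 of 4 fibroblast markers. Satellite glia (5 markers, median 0.09), red cells (4 markers, median -0.51), muscle (6 markers, median 2.07) and oligodendrocytes (2 of 4 markers testable, sums from 42.7 to 76.6 CPM) had 0 calls by edgeR. Of 5 trophoblast markers 1 was called, Prl3d1, which fell by 2.17 (edgeR adjusted p = 0.0369), and the median of the list was -1.83.

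The second comparison, Fracture+PDX against Fracture, is the one the study was designed around and asks what PDX changed in ganglia of mice with a fracture. None of the cytoskeleton genes passed the test. Log2 differences were between -0.04 (Nefl) and 0.04 (Tubb3), 4 of 10 were positive, and 0 of the 9 tested genes passed edgeR's test, with adjusted p from 0.923 to 0.998 and 0 below an unadjusted p of 0.05. Over all 20562 genes 0 (0%) passed, with 1113 below an unadjusted p of 0.05, 0 passing in limma and 21 in DESeq2. The 95% intervals of the 10 genes were narrow. That of Stmn2 ran from -0.04 to 0.06, that of Nefh from -0.15 to 0.08, and the widest, for Ina, from -0.18 to 0.10. Differences of the size seen after fracture lay outside several of these intervals. The intervals of Nefh, Nefm and Map1b had upper bounds of 0.08, 0.07 and 0.10 and lower bounds of -0.15, -0.12 and -0.06. A fall as large as the fracture difference lay within the intervals of Nefl and Ina, whose lower bounds were -0.11 and -0.18.

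Values in Fracture+PDX mice were close to those of Fracture mice throughout. Nefl had 5715, 6017 and 6446 CPM as lowest, median and highest, Nefm 4997, 5326 and 6022, and Nefh 2962, 3227 and 3744. The Fracture ranges of these subunits were overlapped in each case, and Nefh spread more widely in PDX-treated than in vehicle-treated mice. Prph had 1466, 1673 and 1786 CPM, and Ina 38.5, 40.2 and 45.5 CPM. Tubb3 had 2750, 2811 and 2948 CPM, Stmn2 1409, 1467 and 1502 CPM and Map1b 3846, 3894 and 4361 CPM. For these microtubule genes the lowest PDX library was above the highest sham library. Uchl1 had 2010, 2113 and 2231 CPM and Add2 268, 308 and 313 CPM, where 1 female mouse lay within the sham range of Add2 and the other 5 lay above it.

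Fracture+PDX was also compared with sham, which shares its sham libraries with the first comparison and its PDX libraries with the second, so it is no independent repeat of either. Here 4 of the 9 tested genes rose, and all 9 had a positive log2 difference with a median of 0.16 against 0.00 over all genes. Map1b rose by 0.25 (95% interval 0.14 to 0.35, edgeR adjusted p = 0.0143), Tubb3 by 0.21 (0.14 to 0.27, adjusted p = 0.00383), Stmn2 by 0.19 (0.11 to 0.27, adjusted p = 0.0122) and Uchl1 by 0.14 (0.06 to 0.21, adjusted p = 0.0437). The intermediate filament genes did not pass: Nefh had a log2 difference of 0.18 (edgeR adjusted p = 0.0965), Nefm 0.16 (0.0899), Prph 0.11 (0.214), Ina 0.10 (0.325) and Nefl 0.05 (0.592). Add2 had a log2 difference of 0.19, given without a test. Over 20574 genes 925 (4.5%) passed and 447 (2.17%) passed as higher, while limma on log2(FPKM + 0.1) gave 662 and 243. No overlap between the groups was found for Stmn2, Tubb3 and Map1b, as for 307 of 20574 genes (1.49%). Beside these genes, the pan-neuronal markers Syn1, Elavl3 and Rbfox3 rose, 3 of 11, with all 11 positive and a median of 0.15, and 4 of 5 trophoblast markers fell. The endothelial genes Cdh5 and Flt1 fell by 0.74 and 0.73 (edgeR adjusted p = 0.00216 and 0.00339), Csf1r fell by 0.34 (edgeR adjusted p = 0.00431), and the satellite glia channel Kcnj10 rose by 0.27 (edgeR adjusted p = 0.0493). Their part in the rises was not tested. Stmn2, Tubb3 and Map1b stayed called in all 12 fits with 1 mouse left out and without the muscle-rich libraries. Uchl1 stayed called in 3 of the 12, those without Sham male 1, Fracture+PDX male 2 or Fracture+PDX female 3 (edgeR adjusted p from 0.0200 to 0.107 over the 12), and not without the muscle-rich libraries (edgeR adjusted p = 0.0902). That Nefm and Nefh passed against sham in Fracture mice and not in Fracture+PDX mice is no difference between those groups, for which the direct comparison gave -0.02 and -0.03.

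**Figure D3:**
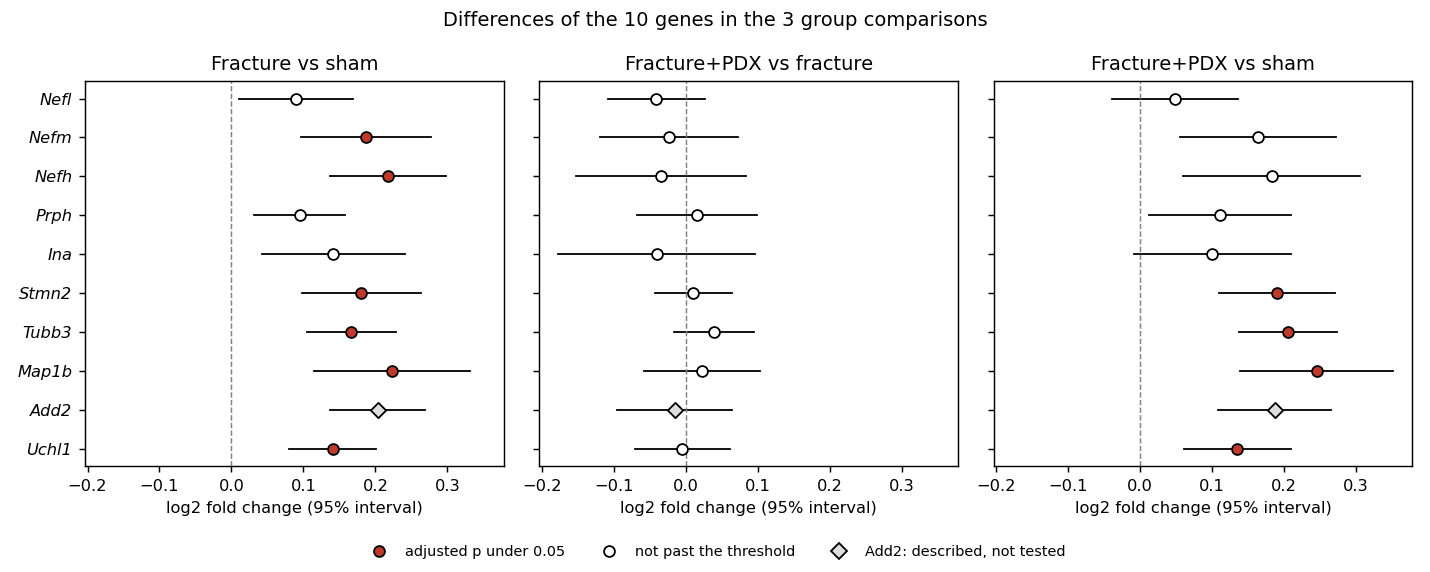
Log2 difference of each gene with its 95% interval in the 3 group comparisons, filled where the edgeR adjusted p was under 0.05 and with Add2 as an untested diamond. All 10 points lie above 0 in both comparisons with sham, and those of Fracture+PDX against Fracture lie between -0.04 and 0.04.

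Males and females were compared over all 18 libraries with the group as a covariate. None of the 10 genes passed edgeR's test between the sexes, whereas 62 of 22557 genes did (0.275%), and Ina alone was below an unadjusted p of 0.05, with a log2 difference female minus male of -0.14 (95% interval -0.23 to -0.04, adjusted p = 0.275). With Add2 set aside, the fracture difference was positive for 9 of 9 genes in each sex. In males it ran from 0.10 to 0.32 with a median of 0.21 and no overlap of the 3 Fracture and 3 sham mice in 9 of the 9 genes (10% of all genes were so placed above sham), and in females from 0.04 to 0.20 with a median of 0.14 and no overlap in 4 of the 9 (8.93% of all genes). The test of the sex difference itself, with Add2 again set aside, called 0 of the 9 genes and 0 of 22047 genes (0%, with 1553 below an unadjusted p of 0.05 and 62 called by DESeq2). The largest terms were Ina, with a difference of 0.24 in males and 0.04 in females (interaction -0.20, edgeR adjusted p = 0.635), and Map1b, with 0.32 and 0.12 (interaction -0.19, edgeR adjusted p = 0.708). The interaction of sex with PDX called 1 of 21878 genes (0.00457%) and 0 of the 9. Ina again had the largest term, 0.32 (edgeR adjusted p = 0.999), with a log2 difference between Fracture+PDX and Fracture of -0.20 in males and 0.12 in females.

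Because the subunits assemble in set proportions, their FPKM ratios were compared within each library, as a description. Nefh stood at 0.414 to 0.428 of Nefl in sham mice, 0.427 to 0.498 in Fracture mice and 0.424 to 0.492 in Fracture+PDX mice. The sham ratios were tightly grouped, and the Fracture and Fracture+PDX ratios reached higher while touching the sham range at their lower end. Nefm stood at 0.461 to 0.518 of Nefl in sham, 0.492 to 0.562 in Fracture and 0.494 to 0.546 in Fracture+PDX mice, which overlapped. In mean log2 ratio to Nefl, Fracture exceeded sham by 0.13 for Nefh, 0.10 for Nefm, 0.05 for Ina and 0.01 for Prph. The ratio of Nefh to Nefm had a difference of 0.03. The exons of Nefl that overlap Nefm on the opposite strand bear on every ratio to Nefl, and their part was not tested.

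**Figure D4:**
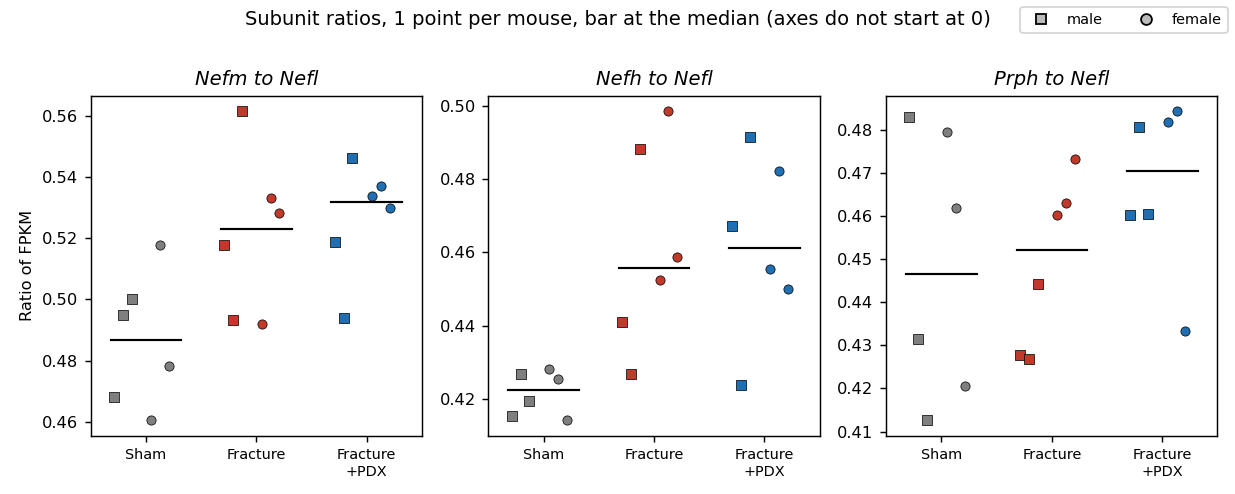
Ratio of Nefm, Nefh and Prph to Nefl in FPKM in each library, with 1 point per mouse (squares for males, circles for females) and a bar at the group median (axes do not start at 0). Nefh to Nefl spans 0.414 to 0.428 in sham and up to 0.498 in Fracture libraries.

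Across libraries the 10 genes did not vary as 1 block. After the means of each group and sex were removed, the 45 pairs had a median Pearson r of 0.20 over 18 libraries, from -0.49 to 0.86, and 34 were positive. The medium and heavy subunits varied most closely together, with r = 0.86, followed by Nefm and Map1b with r = 0.83, Prph and Tubb3 with r = 0.73 and Nefl and Nefh with r = 0.72. Prph and Add2 had r = -0.49, and Stmn2 and Map1b had r = -0.44. These points share their library, depth and cell content. Among 10551 genes of at least 10 CPM outside the set, those most like the mean of the 3 neurofilament subunits were Fam57b (r = 0.87), Cacna2d3 (0.86), Clec2l (0.85), Zfp423 (0.85) and Syt2 (0.83). Of these Cacna2d3, a calcium channel subunit, rose after fracture by 0.13 (edgeR adjusted p = 0.0422) and the other 4 did not pass. Most like Add2 were Ube3a (r = 0.92), Gm2274 (0.88), Rnf150 (0.87), Grm8 (0.86) and Stam2 (0.83), with 0 of the 5 called after fracture by edgeR.

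**Figure D5:**
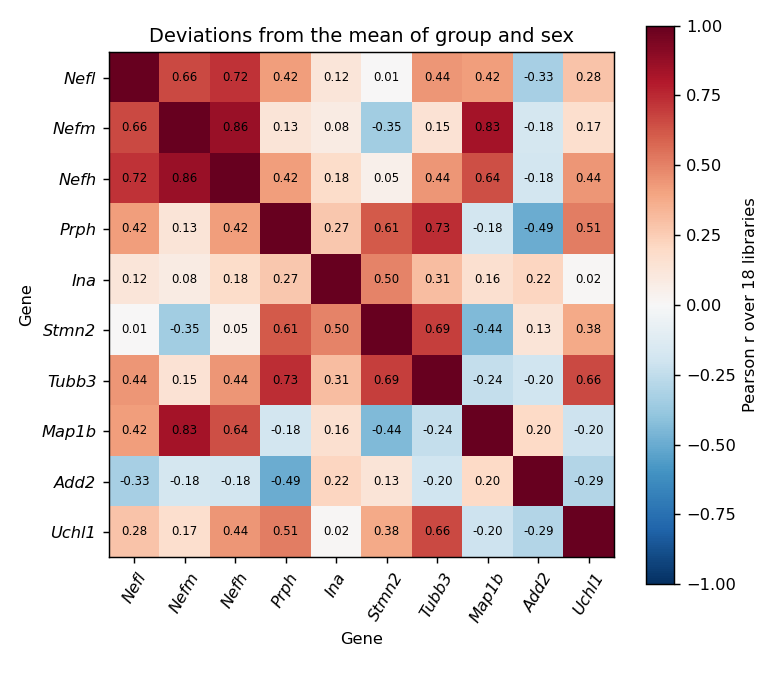
Pearson r between the log2 CPM of each pair of the 10 genes over 18 libraries after group and sex means were removed. Nefm, Nefh and Map1b form the closest group, and Stmn2 and Add2 are negatively related to some of the other genes.

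Genes that work with these proteins were read from lists. Of 12 other tubulins 2 rose after fracture, Tubb4a by 0.15 (edgeR adjusted p = 0.0187) and Tubb6 by 0.38 (0.0228), and all 12 were positive with a median of 0.11. In Fracture+PDX mice 5 of 12 rose against sham, and the 4 with the smallest p, Tubb4a, Tubb6, Tubb2a and Tubb2b, rose by 0.17 to 0.60. Of 32 microtubule-associated proteins and stathmins 2 rose after fracture, Map6 by 0.15 and Dpysl5 by 0.15 (edgeR adjusted p = 0.0288 and 0.0403), 28 were positive and the median was 0.08, and 5 rose with PDX against sham, with log2 differences from 0.15 (Map6) to 0.51 (Stmn4). Of 20 transport motor genes 1 rose, the dynactin subunit Dctn2 by 0.12 (edgeR adjusted p = 0.0270), and 4 rose with PDX against sham, Kif3b, Kif1b, Klc2 and Dctn2. None of these lists had a gene that fell in either comparison.

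The partners of Add2 in the membrane skeleton were read as a further list. Of 17 spectrin, adducin and ankyrin genes 0 passed edgeR's test after fracture, with 13 positive and a median of 0.05. The other adducins had log2 differences of 0.02 (Add1) and -0.04 (Add3). Of 8 other intermediate filaments and cytolinkers 0 passed after fracture, with Vim at -0.03, and Plec and Synm rose with PDX against sham by 0.20 and 0.13 (edgeR adjusted p = 0.0168 and 0.0471). Of 18 neurofilament kinases, phosphatases and turnover genes, the phosphatase subunit Ppp2r1a rose after fracture by 0.12 (edgeR adjusted p = 0.0336), while Ubb and Cdk5r2 rose with PDX against sham.

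Genes of the response to axon injury were read as a last list. Of these 10 genes 5 rose after fracture, and 7 rose with PDX against sham. Mice varied widely in the sum of the list. It ran from 330.6 to 368.5 CPM in sham and from 368.9 to 675.4 CPM (median 397.7) in Fracture libraries. In Fracture+PDX libraries the sum ran from 389.7 to 748.6 CPM (median 525.6), which overlapped the Fracture range. Atf3, the transcription factor of injured sensory neurons, had a mean of 12.9 CPM in sham, 40.5 CPM in Fracture and 62.4 CPM in Fracture+PDX mice, with a log2 difference after fracture of 1.65 (edgeR adjusted p = 0.0141). Sprr1a rose by 3.83, Npy by 2.51, Ecel1 by 1.96 and Sox11 by 0.39 (edgeR adjusted p = 0.0405, 0.0336, 0.0445 and 0.0425). Gap43, the growth cone protein, had a log2 difference of 0.21 (edgeR adjusted p = 0.171), near that of Map1b and Nefh. Fracture+PDX against Fracture gave 0 calls by edgeR in each of these lists, as it did over all genes. In the axon injury list all 10 genes had a positive log2 difference in that comparison, with a median of 0.45.

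RefSeq promoters (GRCm38.p6), taken as the 250 bases before the RefSeq start, were held for 6 of the 10 genes. For Tubb3 and Uchl1 the RefSeq start lies downstream of the gene start given above (123411424 and 66676091). By those coordinates their windows reach into the gene. Promoters are shown for the 3 genes with a promoter that rose after fracture and for Prph, which did not pass. Capitals mark matches on either strand to 3 motifs, the TATA box TATAAA, the CCAAT box CCAAT and the GC box GGGCGG.
Tubb3 (chr8:123411303-123411552, plus strand): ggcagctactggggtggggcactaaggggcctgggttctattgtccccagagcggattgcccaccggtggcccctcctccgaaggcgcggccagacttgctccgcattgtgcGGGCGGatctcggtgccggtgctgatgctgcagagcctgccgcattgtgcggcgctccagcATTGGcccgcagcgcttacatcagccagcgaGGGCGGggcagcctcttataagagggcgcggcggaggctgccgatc
Map1b (chr13:99516603-99516852, minus strand): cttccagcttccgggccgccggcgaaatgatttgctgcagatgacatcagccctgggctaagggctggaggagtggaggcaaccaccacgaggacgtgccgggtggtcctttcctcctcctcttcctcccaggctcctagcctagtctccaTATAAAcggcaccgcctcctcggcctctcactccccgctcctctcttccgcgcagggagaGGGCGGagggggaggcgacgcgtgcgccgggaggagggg
Uchl1 (chr5:66675871-66676120, plus strand): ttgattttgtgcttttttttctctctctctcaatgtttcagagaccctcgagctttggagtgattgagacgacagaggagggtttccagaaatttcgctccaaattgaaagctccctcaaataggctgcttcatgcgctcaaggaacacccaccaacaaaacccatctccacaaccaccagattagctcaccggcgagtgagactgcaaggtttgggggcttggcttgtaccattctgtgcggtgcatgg
Prph (chr15:99054924-99055173, plus strand): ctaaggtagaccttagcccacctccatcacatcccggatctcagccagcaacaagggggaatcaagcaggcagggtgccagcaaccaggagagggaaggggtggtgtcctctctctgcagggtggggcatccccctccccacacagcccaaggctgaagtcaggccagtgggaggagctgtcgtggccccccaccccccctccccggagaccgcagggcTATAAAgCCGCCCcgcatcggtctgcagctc
TATAAA was matched in Map1b and Prph, which 12.4% of 32851 promoters of this length share, and CCAAT in Tubb3, which 33.9% share. GGGCGG was matched in 5 of 6, namely Tubb3, Map1b, Prph, Ina and Add2, against 32.7% of all promoters. Neither the CRE letters TGACGTCA, found in 1.55% of promoters, nor the AP-1 letters TGANTCA, found in 6.75%, occurred in the 6 windows, which says only that these letters are not in them. The GC content was 65.2% in Prph, 68.0% in Tubb3, 66.4% in Map1b, 70.8% in Ina, 53.2% in Add2 and 48.8% in Uchl1, against a median of 52.4%. The motif matches were not shared by all genes that rose and by none that did not, as Uchl1 held 0 matches and Prph 2.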

How the data were processed

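RNA was taken from L3–L5 DRG of 18 mice and sequenced as paired-end stranded poly(A) libraries. The authors deposited 1 table of read counts per gene, which are raw, and of FPKM values, which are scaled for transcript length and library size. Their processing notes name cutadapt 1.10, FastQC, HISAT2, StringTie and the mm10 build. The counting program, its strand setting and the annotation release were not given in the sources used here. The column prefix Con was read as sham. Totals were 63235040 to 82824942 counts per library, and intervals cover the spread between mice.

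Counts were tested in R 4.3.3 with edgeR 4.0.16 (TMM scaling, filterByExpr with a minimum count of 10 and a minimum total of 15, robust quasi-likelihood fits, sex as covariate), with Benjamini-Hochberg adjustment over all genes and a threshold of 0.05. Fits used the 12 libraries of the groups compared, and the sex comparison all 18. The program and test behind the study's comparison across all genes were not given in the sources used here. Alternatives were DESeq2 1.42.0, limma 3.58.1 on log2(FPKM + 1) and log2(FPKM + 0.1), other filters, scaling and covariates, a replicate block, and leaving out each library. Leaving out muscle-rich libraries and marker levels as covariates were added after seeing the data. The 10 genes and all lists were chosen with earlier results of these data known. Genes named beyond the 10 were the 5 most like the neurofilament mean or Add2 and, in each list, up to 4 called genes or, with none called, the 2 with the smallest p. A gene of the spectrin list is not reported here. Add1, Add3, Vim, Gap43, Stmn4, Calca, Tac1 and the CPM values of Atf3 were named outside that rule, after their values were seen. Mouse numbers shared between groups do not mark pairs in the labels. Deviations of same-numbered mice correlated above 0.1 in 6 of 18 pairs (-0.18 to 0.40). Fold changes, p-values and other columns of the authors' comparisons were not used.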

Additional observations from a re-analysis of the deposited data

Results flagged for a closer look

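Among 30 sets of 6 mice (10 genes in 3 groups), 2 held a mouse far from the other 5 by Dixon's criterion at the 95% level, and chance alone marks about 1 in 20. Map1b was 4361 CPM in the Fracture+PDX male 3, against 3846 to 3982 CPM in the other 5 mice of the group. Add2 was 268 CPM in the Fracture+PDX female 2, against 301 to 313 CPM in the others, and this mouse lay within the sham range of 257 to 273 CPM. Without either mouse, 0 of the 9 tested genes were called by edgeR between Fracture+PDX and Fracture.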

How the results depend on the processing

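After fracture all 9 tested genes stayed positive under every alternative run. The count of all genes called was 603, and it was 1477 with DESeq2, 3 without the muscle-rich libraries, 1 with the trophoblast covariate, 2 with the pan-neuronal covariate and 213 to 710 when 1 library was left out. The count of the 9 tested genes was 6, and it was 0 under each of those last 3 settings added after seeing the data, 7 with DESeq2 and 2 to 6 with 1 library left out. For Fracture+PDX against Fracture the count of 0 genes became 21 with DESeq2 and 0 to 1 with 1 library left out, the 1 call being without Fracture+PDX female 3. The Add2 difference of -0.02 ranged from -0.0352 to 0.0127 with 1 library left out, turning positive without Fracture+PDX female 2. For Fracture+PDX against sham 925 genes became 1581 with DESeq2, 561 without the muscle-rich libraries and 498 to 1008 with 1 library left out, while the count of the 9 tested genes went from 4 to between 3 and 6. The 62 genes between the sexes became 324 with DESeq2 and 23 to 82 with 1 library left out. The interaction of sex with fracture went from 0 genes to 62 with DESeq2 and 0 to 1 with 1 library left out, and that of sex with PDX from 1 to 10 and 1 to 2. The trophoblast and pan-neuronal covariates moved the Add2 difference after fracture from 0.20 to 0.13 and 0.12. The cause of these shifts was not tested, except that leaving libraries out leaves fewer samples.

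With the mouse number as a replicate block, 118 genes and 1 of the 9 tested genes were called after fracture, and 486 genes with PDX against sham. The block changed no call of PDX against Fracture. Mice sharing a number were the best match across groups in 20 of 36 checks, which is a hint from the data and not the design. Each check chose among only 3 mice of the same sex. Every pair of groups was checked in both directions, so the checks are not independent.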
